A study of Mus musculus with 18 samples.

Results

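Semaphorins and their plexin receptors were followed through chemical skin carcinogenesis in epidermal cells sorted from mice with or without epidermal deletion of Zfp36, the gene of tristetraprolin (TTP). Members were all rows of the count table whose gene name was Sema followed by a digit and a letter, or started with Plxn. The rule found 32 of 52636 genes. They comprised 7 secreted semaphorins (Sema3a to Sema3g), 12 transmembrane semaphorins of the classes 4 to 6, the GPI-anchored Sema7a, 9 plexins and 3 antisense RNAs of Plxna4 (Plxna4os1, Plxna4os2 and Plxna4os3). In all, 29 members were protein-coding.

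All mice were on a C57BL/6 background and carried loxP-flanked Zfp36 alleles. Control mice (fl/fl) had no Cre, whereas their littermates (ΔEP, named ΔK14 in the labels) also carried Cre under the human keratin 14 promoter, which is active in basal epidermal cells and in the hair follicle. Mice were 8 weeks old when the treatment started. RNA came from 3 stages: mock-treated skin, nontumoral skin next to tumors after the mutagen DMBA and the phorbol ester TPA (treated skin), and papillomas (tumors). Cells were sorted as EpCAM+ CD45- CD140a- CD31-, a gate for epithelial cells that leaves out leukocytes, fibroblasts and endothelium. Each of the 6 groups had 3 columns of counts. Mock ΔEP replicates 2 and 3 differed by less than the sampling noise, with equal counts for all genes, and entered as 1 sample, so that 17 libraries remained, with n = 2 for mock ΔEP and n = 3 for every other group. The labels do not say whether the libraries of a group came from separate animals, and p-values then measure only the spread between these libraries.

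Semaphorins are guidance ligands that were described in growing axons and that also act in epithelia, vessels and immune cells. Class 3 proteins are secreted and bind neuropilins, which present them to class A plexins, whereas classes 4 to 7 are held at the membrane and mostly bind plexins directly. Plexins carry an intracellular domain that lowers Ras and Rap activity. In skin, Sema3a and Sema4d with its receptor Plxnb1 or Plxnb2 are known from nerve fiber guidance and wound repair. TTP binds AU-rich elements in the 3′ untranslated region (UTR) and speeds decay of the mRNA.

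Total counts ran from 2808550 to 9617985 per library. Zfp36 itself was at 152 to 716 CPM (counts scaled to library size) in the fl/fl libraries and at 10.1 to 38.6 CPM in the ΔEP libraries, with no overlap at any stage. The lowest total belonged to tumor fl/fl replicate 1, whose summed sebaceous gland markers (Scd1, Fasn, Mc5r and Awat1) were at 503 CPM, against 3738 and 6887 CPM in the other fl/fl tumors and 474 to 657 CPM in the ΔEP tumors. Mock replicate 1 of either genotype stood apart as well. Its suprabasal keratinocyte markers summed to 677 CPM (fl/fl) and 537 CPM (ΔEP), against 5603 to 7524 CPM in the other mock libraries. Summed keratinocyte markers were at 3526 CPM or more in every library but varied widely. They were at 25734 to 26230 CPM in ΔEP tumors and at 31917, 9298 and 10660 CPM in fl/fl tumor replicates 1 to 3. Mock replicate 1 was at 3589 CPM (fl/fl) and 3526 CPM (ΔEP), against 18728 to 21636 CPM in the other mock libraries. Of the markers of other cell types, the defining leukocyte genes Ptprc and Cd3e did not pass 1.51 CPM in any library, while the sum of 10 leukocyte markers, mostly Cd74, was 64.2 to 94.2 CPM in ΔEP tumors and 20.9 to 36.6 CPM in fl/fl tumors. Summed fibroblast markers were at 30.4 to 386 CPM in tumors and at 377 to 1678 CPM in mock or treated skin. In such bulk samples, fewer cells of a type and less RNA per cell cannot be told apart.

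Since TTP acts through AU-rich elements, the 3′ UTR of each protein-coding member was searched for the heptamer TATTTAT on the transcript strand, in the longest UTR annotated for the gene (GENCODE, build GRCm38). The heptamer was found in 19 of 29 members (65.5%), compared with 27.6% of 20939 genes. Members had longer UTRs than other genes, with a median of 1400 bases against 961, and the density was 0.406 heptamers per kb against 0.311 per kb. The pentamer ATTTA, which lies within the heptamer, was found in 24 members (82.8%, against 65.2% of all genes), and the nonamer TTATTTATT, which contains it, in 4 members (13.8%, against 7.66%). Sema4d and Sema4b had no heptamer. The sites of 6 of the 19 members are printed, written as DNA in the sense of the transcript, with the heptamer in capitals and 8 bases on each side. They are those of Sema6d, Sema4g and the secreted semaphorins whose tumor levels are set against the genotype below. TTP is known to bind such letters, but its binding to these sites was not measured. The other members that hold the heptamer are Sema3a, Sema3d, Sema3g, Sema4c, Sema5a, Sema6a, Sema6c, Sema7a, Plxna1, Plxna2, Plxna3, Plxna4 and Plxnb3. There are 3 each in Sema3d and Sema6a and 1 in each of the rest.
Sema6d, chr2:124667486-124667508, plus strand: tctatcagTATTTATgttgaaat
Sema3f site 1, chr9:107682295-107682317, minus strand: aaagacagTATTTATtggtgggt
Sema3f site 2, chr9:107681872-107681894, minus strand: tttttcccTATTTATtggggaca
Sema3c, chr5:17727986-17728008, plus strand: ccagatttTATTTATatctttat
Sema3b, chr9:107598599-107598621, minus strand: gggtagctTATTTATtaacaaga
Sema3e site 1, chr5:14253015-14253037, plus strand: gcttcacgTATTTATcaacatat
Sema3e site 2, chr5:14255066-14255088, plus strand: taaatatgTATTTATatatacat
Sema4g, chr19:45003250-45003272, plus strand: aatgaatgTATTTATtgtgagaa

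All of these sites lie in the 3′ UTR. The printed site of Sema6d begins at base 2177 of a UTR of 2461 bases, and 46.1% of 3296 genes with a UTR of like length (within 25 percent) hold a heptamer too. Sema3f holds 2 heptamers in 929 bases, which 5.45% of genes of like length match. A match is a description of the letters only, and no binding was measured.

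**Figure D1:**
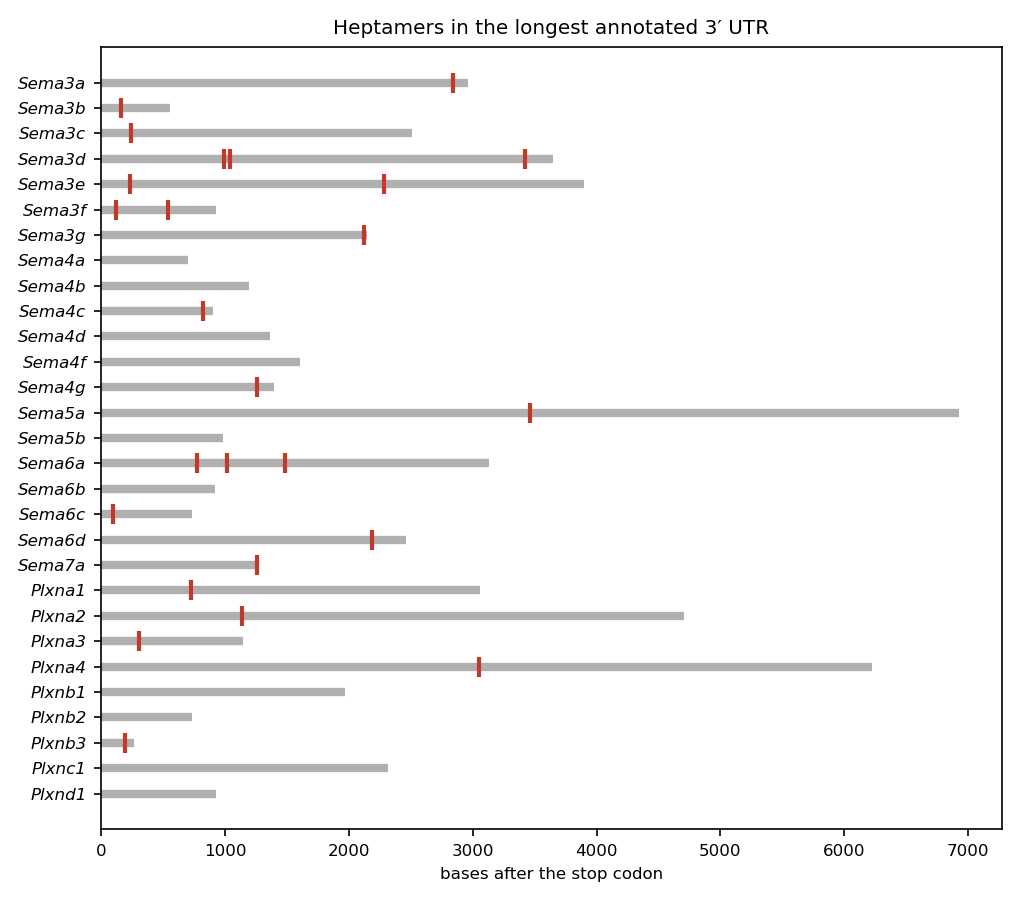
Each grey bar is the longest annotated 3′ UTR of a protein-coding member, drawn to scale in bases after the stop codon, and each red mark is a heptamer. The heptamer is present in 19 of 29 members, with 2 marks in the short UTR of Sema3f and none in Sema4b or Sema4d.

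Levels were compared between members as CPM per kb of merged exon length. In mock fl/fl skin the secreted Sema3c had the highest level (53.8 ± 42.0 CPM per kb, SD, n = 3), followed by the receptor Plxnb2 (35.0 ± 4.57 CPM per kb), Sema3d (26.3 ± 19.9 CPM per kb) and Plxna1 (24.3 ± 4.10 CPM per kb). The levels of Sema3c and Plxnb2 did not differ beyond their spread. In treated skin the order was led by Plxnb2 (30.4 ± 4.29 CPM per kb in fl/fl) and Plxna1 (27.3 ± 1.37 CPM per kb). ΔEP tumors had Plxnb2 (48.7 ± 6.42 CPM per kb) and Sema3c (44.8 ± 15.5 CPM per kb) at the top, which overlapped within their spread, followed by Sema4b (37.4 ± 13.1 CPM per kb), Plxna1 (21.1 ± 1.92 CPM per kb), Sema3f (19.1 ± 5.70 CPM per kb), Sema6d (11.3 ± 5.77 CPM per kb) and Sema4d (9.93 ± 2.34 CPM per kb). Plxnb2, a class B plexin of epithelia, was the highest plexin in all 6 groups. Sema4b was the highest membrane semaphorin in all 6 groups. Sema6d moved up the order between stages, from 0.36 ± 0.15 CPM per kb in mock fl/fl skin to 2.39 ± 1.31 CPM per kb in fl/fl tumors.

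At the low end, 8 members did not pass the count filter over the 6 groups. They were Plxna4, Plxnb3, Sema4f, Sema5b, Sema6b and the 3 antisense RNAs. Plxna4, a receptor for class 3 and class 6 semaphorins in neurons, had at most 19 counts in any library, and its antisense RNAs had at most 3 counts. The strand setting of the counting is not given in the sources used here. Exons overlapping a gene on the opposite strand (Plxna1 with Gm26811 over 970 bases, Plxnb1 with Gm7628 over 257 bases, Sema4c with D430040D24Rik over 334 bases, Plxna4 with Plxna4os3 over 110 bases) or on the same strand (Plxnc1 with Gm48718 over 115 bases, Sema4a with Mir7011 over 73 bases) make those values less certain.

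**Figure D2:**
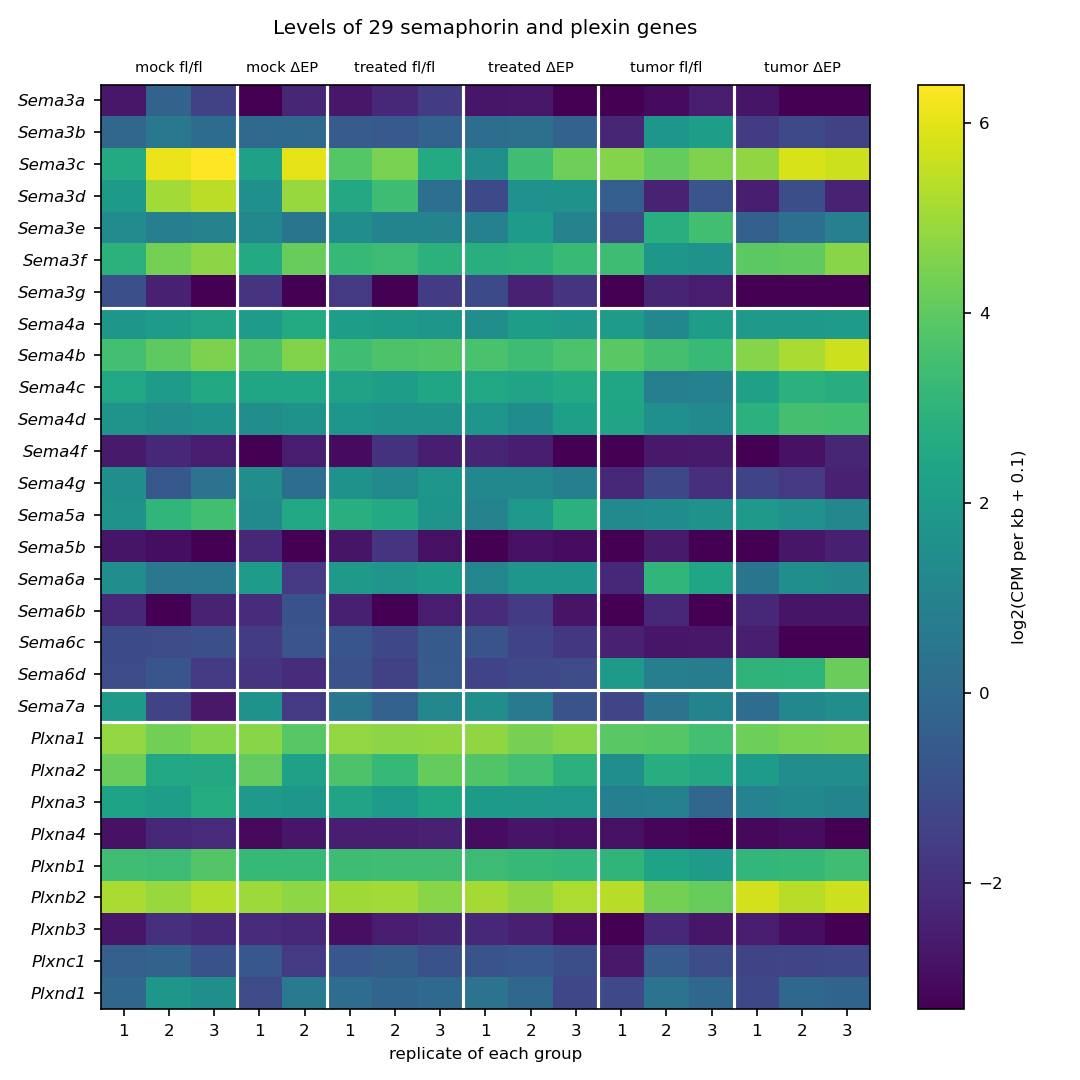
Rows are the 29 protein-coding members by class (secreted, transmembrane, GPI-anchored, plexin, separated by white lines) and columns are the 17 libraries, with color giving log2(CPM per kb + 0.1). Sema6d brightens in all 6 tumor libraries, Sema3d is dark in them, and Sema3c and Sema3d differ between mock replicate 1 and the other mock libraries.

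Tumors were then compared with the treated skin next to them, within each genotype, to find which members moved with tumor formation. Genes were called at an adjusted p below 0.05 together with more than a 2-fold difference (edgeR's quasi-likelihood test, Benjamini-Hochberg over all genes tested). In fl/fl mice 8 of 22 tested members were called (1 higher, 7 lower), where 18.0% of all 15362 genes were called (7.50% higher, 10.5% lower). In ΔEP mice 10 of 21 tested members were called (5 higher, 5 lower), against 26.0% of all 15289 genes (10.5% higher, 15.5% lower). The median log2 difference of the tested members was -0.36 in fl/fl and -0.32 in ΔEP, compared with -0.02 and -0.03 over all genes. Sema6d rose and Sema4g, Sema3d and Plxna2 fell in both genotypes. Sema4b, Sema4d, Sema3f and Sema3c were called higher in ΔEP tumors, whereas in fl/fl mice the called members other than Sema6d were all lower.

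Sema6d (ENSMUSG00000027200, GRCm38 chr2:124089969-124667770, plus strand), a transmembrane ligand of class A plexins, was near the lower end in skin and rose in tumors of both genotypes. Its level was 4.56, 2.85 and 6.28 CPM in treated fl/fl skin and 41.1, 17.7 and 16.7 CPM in fl/fl tumors. In ΔEP mice it was 3.05, 3.66 and 4.06 CPM in treated skin and 84.8, 82.6 and 189 CPM in tumors. No tumor library overlapped with skin of its genotype, and every ΔEP tumor was above every fl/fl tumor. On the log2 scale the increase was 2.36 (SE 0.453, adjusted p = 0.0107) in fl/fl and 4.93 (SE 0.388, adjusted p = 0.000180) in ΔEP, or 5.52-fold and 33.1-fold between the group means. Without treated fl/fl replicate 1, the fl/fl increase missed the threshold (2.35, adjusted p = 0.0583).

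Sema4d (ENSMUSG00000021451, chr13:51685529-51793747, minus strand), known as a ligand of the class B plexins and of CD72, rose in ΔEP tumors. Treated skin held 25.5, 23.0 and 24.1 CPM in fl/fl and 25.7, 19.6 and 34.0 CPM in ΔEP. Tumors held 38.6, 21.8 and 18.4 CPM in fl/fl, overlapping with skin, and 55.7, 88.6 and 84.5 CPM in ΔEP, above all skin libraries. The increase in ΔEP was 1.44 on the log2 scale (SE 0.246, adjusted p = 0.00316), and the difference in fl/fl was 0.06 (SE 0.287, adjusted p = 0.891). This fl/fl value turned to -0.28 without tumor fl/fl replicate 1. As Sema4d is also made by leukocytes, their markers were read beside it. Cd74 was at 54.9 to 83.6 CPM in ΔEP tumors and 10.7 to 28.6 CPM in fl/fl tumors. It was at 172 CPM in treated ΔEP replicate 3, which had the highest Sema4d of the treated libraries (34.0 CPM). Ptprc was at 0.447 to 1.45 CPM in ΔEP tumors and 0 to 1.51 CPM in fl/fl tumors. The part of leukocytes in the result was not tested.

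Sema4b (ENSMUSG00000030539, chr7:80186841-80226527, plus strand), a class 4 relative of Sema4d, was the membrane semaphorin with most reads per length. It was at 60.2, 72.4 and 76.9 CPM in treated fl/fl skin, 69.1, 59.0 and 69.8 CPM in treated ΔEP skin and 85.8, 64.4 and 53.4 CPM in fl/fl tumors. ΔEP tumors held 141, 204 and 288 CPM and did not overlap with any of these groups. The difference between tumors and treated skin was 1.58 in ΔEP (log2, SE 0.247, adjusted p = 0.00226) and -0.08 in fl/fl (SE 0.214, adjusted p = 0.811).

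Sema4g (ENSMUSG00000025207, chr19:44989101-45003397, plus strand), another class 4 member, fell in tumors of both genotypes. It was at 27.0, 20.4 and 29.4 CPM in treated fl/fl skin and 1.0, 2.90 and 1.31 CPM in fl/fl tumors. In ΔEP the values were 19.4, 19.1 and 15 CPM in treated skin and 2.46, 1.82 and 0.760 CPM in tumors. The groups were wide apart, and the call held under each alternative that was run. The log2 difference was -3.72 (SE 0.393, adjusted p = 0.00176) in fl/fl and -3.51 (SE 0.391, adjusted p = 0.000634) in ΔEP. Sema6c was low throughout, with 1, 2 and 1 counts in the fl/fl tumors. Treated fl/fl skin was 8.53-fold above these tumors (95% counting interval 3.17 to 32.3, from 63 and 4 counts, counting error only), and the fitted decrease was called (adjusted p = 0.0109). The axonal guidance ligand Sema5a was called lower in fl/fl tumors (-1.02, SE 0.285, adjusted p = 0.0356). Its call was lost without treated fl/fl replicate 1 or 2 or any of the fl/fl tumor libraries, at values between -1.11 and -0.82.

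Among secreted semaphorins, Sema3d (ENSMUSG00000040254, chr5:12383385-12588948, plus strand), a neuropilin ligand, was low in tumors. It was at 50.0, 89.3 and 9.15 CPM in treated fl/fl skin and 5.52, 0.764 and 4.26 CPM in fl/fl tumors. ΔEP libraries held 3.05, 24.9 and 26.4 CPM in treated skin and 0.671, 3.45 and 0.760 CPM in tumors. The groups did not overlap in fl/fl, whereas in ΔEP the highest tumor was just above the lowest skin library. The log2 difference was -4.04 in fl/fl (SE 0.945, adjusted p = 0.0204) and -3.53 in ΔEP (SE 0.854, adjusted p = 0.0130). The treated libraries with the lowest Sema3d, treated fl/fl replicate 3 and treated ΔEP replicate 1, were also lowest in suprabasal markers within their group, at 678 and 1688 CPM. The same libraries were lowest in keratinocyte and hair follicle markers as well. The part of these cells in the result was not tested.

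Sema3c and Sema3f rose in ΔEP tumors. Sema3c, known to bind neuropilins and to act on tumor and vessel cells, was at 19.2, 75.7 and 136 CPM in treated ΔEP skin and 195, 405 and 360 CPM in ΔEP tumors (log2 difference 1.96, SE 0.578, adjusted p = 0.0280). In fl/fl mice it was at 102, 157 and 43.3 CPM in treated skin and 172, 123 and 164 CPM in tumors, which overlapped (0.59, SE 0.403, adjusted p = 0.307). Sema3f (ENSMUSG00000034684, chr9:107681500-107710475, minus strand), a ligand of Nrp2 with known antiangiogenic activity, was at 36.4, 39.2 and 48.9 CPM in treated ΔEP skin and 79.8, 84.9 and 134 CPM in ΔEP tumors. These libraries did not overlap (1.16, SE 0.229, adjusted p = 0.00556). Fl/fl tumors held 53.7, 17.7 and 15.7 CPM of Sema3f against 47.3, 52.2 and 39.2 CPM in treated skin (-0.74, SE 0.441, adjusted p = 0.244). Without tumor fl/fl replicate 1, which carried the highest value, Sema3f was called lower in fl/fl tumors (-1.47, SE 0.194, adjusted p = 0.00103).

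Sema3b and Sema3e, secreted ligands of which Sema3e is known to bind Plxnd1 without a neuropilin, split the fl/fl tumors. Sema3b was at 0.502, 16.2 and 19.7 CPM and Sema3e at 3.51, 62.2 and 101 CPM in fl/fl tumor replicates 1 to 3. In both genes replicate 1 was below, and the other libraries above, every treated fl/fl library (2.63 to 3.53 CPM for Sema3b and 17.9 to 25.3 CPM for Sema3e). The libraries with high values were those with a high sum of sebaceous markers, which was mostly Scd1 (3210 and 6079 CPM against 196 CPM in replicate 1). In fl/fl tumor replicates 1 to 3, Fasn was at 307, 521 and 798 CPM and Awat1 at 0, 5.34 and 9.18 CPM. Mc5r, at 0, 1.22 and 0 CPM, did not follow in replicate 3. The part of sebaceous cells was not tested. In ΔEP tumors Sema3b fell to 1.12, 1.63 and 1.33 CPM from 5.02, 5.35 and 3.55 CPM in treated skin (-1.85, SE 0.371, adjusted p = 0.00603). Sema3e fell to 6.49, 9.98 and 16.5 CPM from 17.2, 37.2 and 18.3 CPM (-1.26, SE 0.415, adjusted p = 0.0427). The call of Sema3e was lost without treated ΔEP replicate 2 (-0.76, adjusted p = 0.177), tumor ΔEP replicate 1 (-0.96) or tumor ΔEP replicate 2 (-1.15). Without tumor fl/fl replicate 1, both genes were called higher in fl/fl tumors than in treated fl/fl skin (Sema3b 2.51, adjusted p = 0.000367, and Sema3e 1.95, adjusted p = 0.000865).

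**Figure D3:**
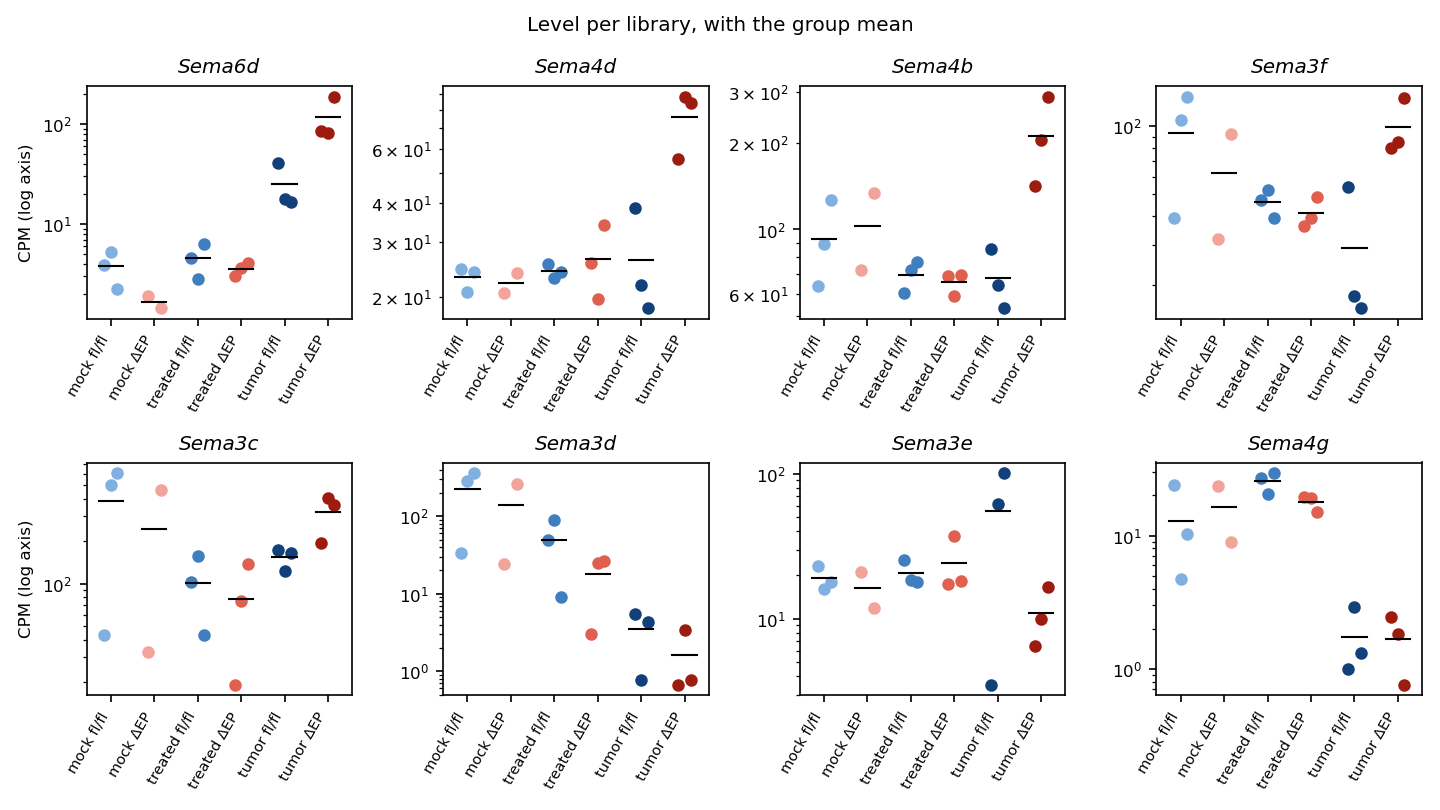
Each panel plots a semaphorin, each point is the CPM of a library (log axis) and each bar the group mean (n = 3, mock ΔEP n = 2). ΔEP tumors lie above all fl/fl tumors for Sema6d, Sema4d, Sema4b, Sema3f and Sema3c, and tumors of both genotypes lie low for Sema3d and Sema4g.

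Of 7 tested plexins, 3 were called lower in fl/fl tumors, beside 10.5% of all genes, and 1 in ΔEP tumors, beside 15.5% of all genes, with none called higher. Plxna2, a receptor for Sema6 and class 3 ligands, was at 221, 158 and 297 CPM in treated fl/fl skin and 47.2, 114 and 98.7 CPM in fl/fl tumors (-1.40, SE 0.369, adjusted p = 0.0295). In ΔEP it was at 234, 190 and 129 CPM in treated skin and 68.4, 45.2 and 46.4 CPM in tumors (-1.89, SE 0.283, adjusted p = 0.00197). Tumors lay below treated skin in both genotypes. Plxna1, which pairs with neuropilins, was at 259, 234 and 248 CPM in treated fl/fl skin and 135, 131 and 101 CPM in fl/fl tumors (-1.05, SE 0.177, adjusted p = 0.00699). The corresponding ΔEP difference of Plxna1 was -0.32 (SE 0.167, adjusted p = 0.163). Plxna3, another partner of neuropilins, differed by -1.73 in fl/fl (SE 0.302, adjusted p = 0.00784). In ΔEP its difference of -0.94 (SE 0.184, adjusted p = 0.00556) stayed below the 2-fold limit. Plxnb2 (ENSMUSG00000036606, chr15:89155549-89180788, minus strand), a receptor of Sema4d, was at 253, 255 and 197 CPM in treated fl/fl skin and 317, 159 and 135 CPM in fl/fl tumors, which overlapped (-0.24, SE 0.315, adjusted p = 0.600), and its ΔEP difference was 0.47 (SE 0.187, adjusted p = 0.0782).

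Several of these calls depended on single libraries. Plxna1 fell below the 2-fold limit without tumor fl/fl replicate 3 (-0.92), and Plxna2 missed the threshold in fl/fl without treated fl/fl replicate 1 (adjusted p = 0.0923), treated fl/fl replicate 3 (adjusted p = 0.10) or tumor fl/fl replicate 3 (adjusted p = 0.0706). Sema3d missed it in fl/fl without treated replicate 1 or 2 or tumor replicate 2 or 3 (adjusted p = 0.0561 to 0.0692), and in ΔEP without tumor replicate 3 (adjusted p = 0.0584). Sema3c missed it in ΔEP without treated replicate 2 (adjusted p = 0.0871), tumor replicate 2 (adjusted p = 0.0769) or tumor replicate 3 (adjusted p = 0.0786), and Sema3f fell below the 2-fold limit in ΔEP without tumor replicate 3 (0.93).

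**Figure D4:**
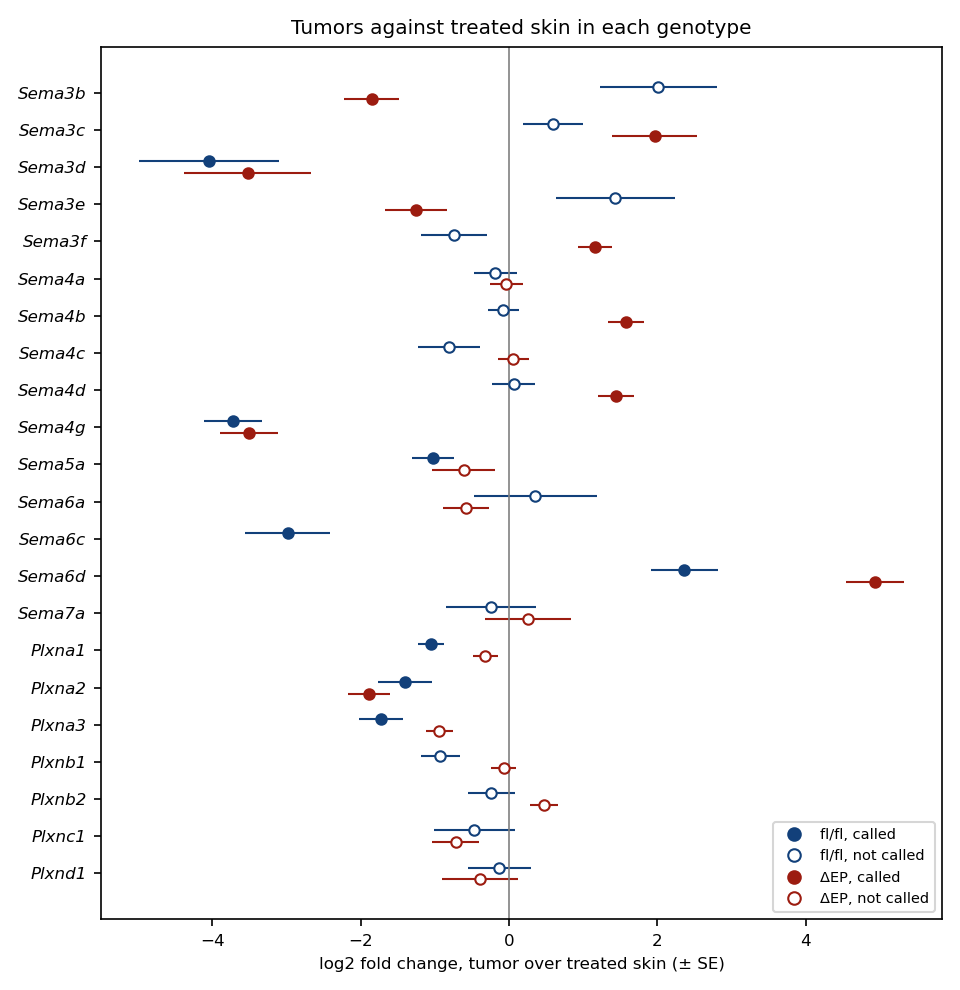
Points are log2 fold changes of tumor over treated skin for each tested member, with bars of 1 SE, in fl/fl (blue) and ΔEP (red), and filled points are called. Sema6d lies at 2.36 and 4.93, and Sema4g and Sema3d lie far to the left in both genotypes. Sema4b, Sema4d and Sema3f lie to the right in ΔEP alone. No difference between the genotypes passed its own quasi-likelihood test with all libraries, while DESeq2 called it for Sema3b, Sema4b and Sema6d.

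Against mock skin, which received neither agent, 3 of 22 tested members were called in fl/fl tumors, beside 4.11% of all 15394 genes, and 5 of 21 in ΔEP tumors, beside 14.3% of all 15027 genes. These comparisons use the same tumor libraries as those with treated skin. Sema6d was at 3.88, 5.30 and 2.22 CPM in mock fl/fl and 1.89 and 1.44 CPM in mock ΔEP skin, all below the tumors. Its increase was 2.69 in fl/fl (SE 0.516, adjusted p = 0.0363) and 6.02 in ΔEP (SE 0.606, adjusted p = 0.00608). Sema4d, at 20.6 to 24.5 CPM in the mock libraries, differed by 1.69 in ΔEP (SE 0.307, adjusted p = 0.0206) and by 0.14 in fl/fl (SE 0.345, adjusted p = 0.834). Sema3d had the largest decrease among members, from 33.4, 284 and 361 CPM in mock fl/fl and 24.4 and 258 CPM in mock ΔEP. Its log2 difference was -6.17 in fl/fl (SE 1.09, adjusted p = 0.0288) and -6.47 in ΔEP (SE 1.12, adjusted p = 0.0187). Plxna3 fell in fl/fl (-1.86, SE 0.377, adjusted p = 0.0419). Sema4g (-3.37, SE 0.610, adjusted p = 0.0205) and Sema3b (-1.73, SE 0.429, adjusted p = 0.0426) fell in ΔEP.

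Each of the 3 fl/fl calls against mock skin was lost on leaving out mock replicate 2 or 3 or any fl/fl tumor library, with values of 2.17 to 2.97 for Sema6d, -6.64 to -5.52 for Sema3d and -2.05 to -1.57 for Plxna3. In ΔEP, leaving out a mock library leaves a single one, which is then assumed to vary like the tumors. Sema6d remained called whichever library was left out, whereas Sema3d and Sema4g missed the threshold on leaving out each tumor library in turn (adjusted p up to 0.0872 and 0.0955), Sema4d missed it without tumor replicate 2 (adjusted p = 0.0961) or 3 (adjusted p = 0.0990), and Sema3b missed it whichever library was left out (adjusted p up to 0.149). Without tumor fl/fl replicate 1, Sema3e was called higher in fl/fl tumors (2.06, SE 0.331, adjusted p = 0.0368). Without mock replicate 1 of either genotype, 9 of 23 tested members were called in fl/fl tumors, beside 21% of all 15636 genes.

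The genotype comparison in tumors asked how epidermal loss of TTP changed the members. None of 19 tested members was called by edgeR's quasi-likelihood test, which called 0.0284% of all 14067 genes. At an unadjusted p under 0.05, 8 members were higher and 2 were lower in ΔEP tumors, where 6.88% and 7.16% of all genes were. In 9 tested members, all ΔEP tumors were above all fl/fl tumors (Sema3c, Sema3f, Sema4b, Sema4d, Sema6d, Plxna1, Plxna3, Plxnb1 and Plxnb2), as in 13.6% of all genes, and 0 members were without overlap in the other direction, as in 4.23% of all genes. The median log2 difference over the tested members was 0.51, compared with -0.02 over all genes. The other 13 members did not pass the filter in this comparison.

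Transmembrane ligands had the smallest p-values. ΔEP tumors exceeded fl/fl tumors by 1.5 for Sema4b (log2, SE 0.292, adjusted p = 0.175), by 2.14 for Sema6d (SE 0.449, adjusted p = 0.183) and by 1.43 for Sema4d (SE 0.314, adjusted p = 0.183). Between group means these are ratios of 3.11, 4.72 and 2.90. Secreted ligands followed, with 1.69 for Sema3f (SE 0.462, adjusted p = 0.228) and 0.93 for Sema3c (SE 0.290, adjusted p = 0.253). Sema3e had the largest difference the other way (-2.50, SE 0.870, adjusted p = 0.272), although its lowest value was in fl/fl tumor replicate 1. Among receptors, Plxnb2 was at 415, 320 and 392.3 CPM in ΔEP tumors, all above the 317, 159 and 135 CPM of fl/fl tumors (0.76, SE 0.318, adjusted p = 0.342). Plxna1 differed by 0.51 (SE 0.189, adjusted p = 0.296) and Plxna2 by -0.85 (SE 0.349, adjusted p = 0.336). The difference of Sema4a (-0.03, SE 0.287) lay within its error. Summed over the 12 transmembrane semaphorins, the level was 530 ± 136 CPM in ΔEP tumors and 245 ± 18.4 CPM in fl/fl tumors, and summed over the plexins it was 734 ± 52.9 CPM and 488 ± 104 CPM (SD, n = 3). Markers of other cells were read in these tumors as well. Summed Schwann cell markers were at 55.0 to 81.3 CPM in ΔEP (3 of 4 with a count) and 17.7 to 40.1 CPM in fl/fl tumors, with no overlap. The sums of 8 hair follicle markers did not overlap either and lay the other way, at 627, 432 and 631 CPM in ΔEP and 682, 1308 and 1612 CPM in fl/fl tumors. Merkel cell markers overlapped, at 7.60 to 18.8 CPM in ΔEP and 2.29 to 8.03 CPM in fl/fl tumors. Their part in the results was not tested.

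These tumor differences depended on the test and on a single library. DESeq2 called 4 members, all higher, beside 2.60% of all genes. They were Sema6d (adjusted p = 0.000840), Sema4b (adjusted p = 0.000887), Sema4d (adjusted p = 0.00514) and Sema3f (adjusted p = 0.0232). The same 4 were called by edgeR's exact test beside 2.62% of all genes, and a single fit of all libraries called 3 (Sema4b, Sema4d and Sema6d) beside 0.668%. Leaving out tumor fl/fl replicate 1 gave 11 calls among members, 7 higher and 4 lower, where 7.32% and 9.58% of all genes were called. Sema6d then differed by 2.67 (SE 0.382, adjusted p = 0.00119), Sema4d by 1.80 (SE 0.248, adjusted p = 0.000968), Sema4b by 1.72 (SE 0.281, adjusted p = 0.00233) and Sema3f by 2.45 (SE 0.272, adjusted p = 0.000310). Plxnb2 (1.24, SE 0.196, adjusted p = 0.00199) and Sema3c (1.05, SE 0.289, adjusted p = 0.0272) were called as well, together with Sema4c, at 21.2 to 33.4 CPM in ΔEP and 24.1, 8.09 and 8.52 CPM in fl/fl tumors (1.67, SE 0.275, adjusted p = 0.00251). The lower ones were Sema3b (-3.78, SE 0.335, adjusted p = 0.000106), Sema3e (-2.98, SE 0.342, adjusted p = 0.000378), Sema6a (-1.81, SE 0.303, adjusted p = 0.00269) and Plxna2 (-1.10, SE 0.226, adjusted p = 0.00734). Sema4c and Sema6a were named after their values were seen. Sema6a, a class 6 ligand, was at 73.0 and 46.9 CPM in the remaining fl/fl tumors, 1.0 CPM in replicate 1 and 11.2 to 24.3 CPM in ΔEP tumors. The fl/fl tumors with high Sema6a were the ones with high sebaceous markers, at 3738 and 6887 CPM. Their keratinocyte markers were at 9298 and 10660 CPM. Tumor fl/fl replicate 1, at 503 CPM (sebaceous) and 31917 CPM (keratinocyte), was nearer to the ΔEP tumors (474 to 657 and 25734 to 26230 CPM). The part of these marker differences in the 11 calls was not tested. Leaving out any other tumor library gave 0 calls among members.

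**Figure D5:**
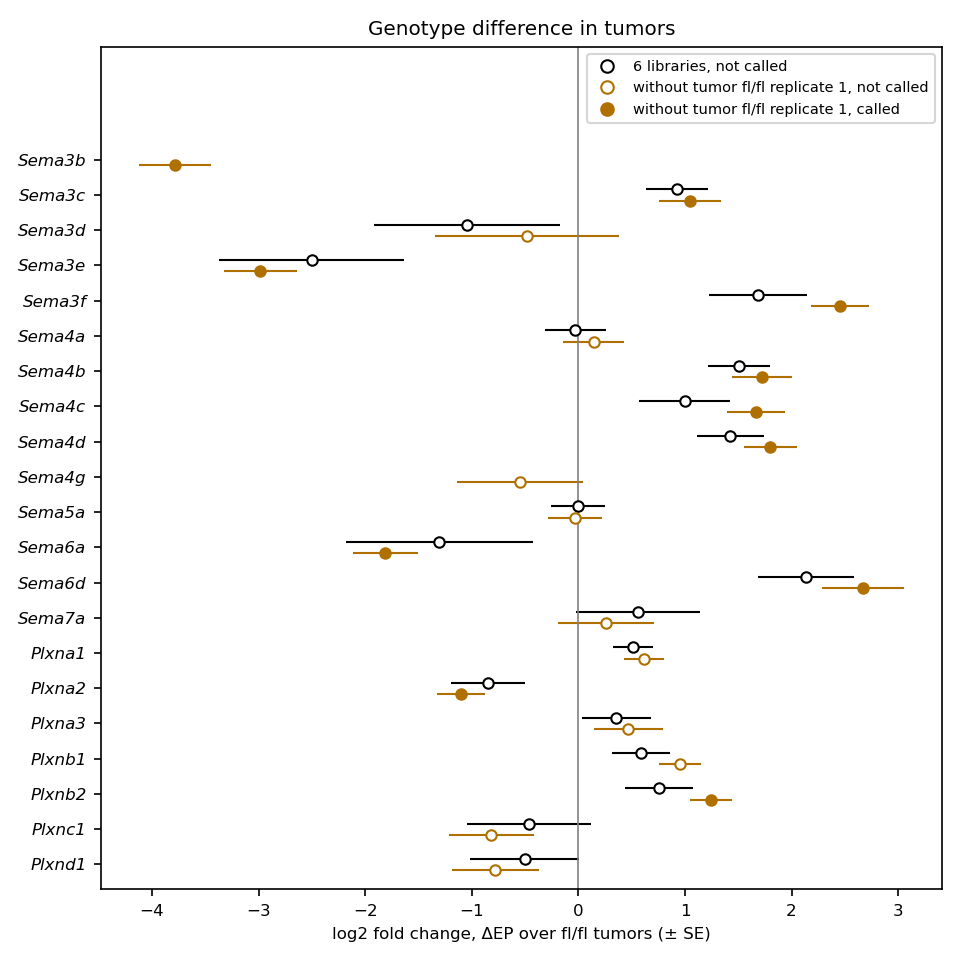
Points are log2 fold changes of ΔEP over fl/fl tumors with bars of 1 SE, from 6 libraries (black) and without tumor fl/fl replicate 1 (brown), and filled points are called. With 6 libraries no member is called, while without that library 11 are, with Sema6d at 2.67 and Sema3b at -3.78.

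Whether the step from treated skin to tumor differed between genotypes was tested as an interaction over the 4 groups. It was called for none of 22 tested members and for 0.0118% of all 17017 genes. At an unadjusted p under 0.05 there were 9 members, where 13.2% of all genes were. Sema4b (1.67, SE 0.343, adjusted p = 0.153) and Sema6d (2.60, SE 0.609, adjusted p = 0.203) had the smallest p-values, with Sema4d at 1.40 (SE 0.394, adjusted p = 0.208). DESeq2 called 3 members (Sema3b, Sema4b and Sema6d) beside 1.43% of all genes. Without tumor fl/fl replicate 1, 10 members were called beside 7.96% of all genes, among them Sema6d (3.11, SE 0.539, adjusted p = 0.00586), Sema4b (1.86, SE 0.336, adjusted p = 0.00700) and Sema4d (1.75, SE 0.338, adjusted p = 0.00997). With all libraries included, edgeR's quasi-likelihood test therefore does not show that a call in ΔEP and not in fl/fl is a difference between genotypes. DESeq2 did call the interaction for Sema3b and Sema4b, which were called against treated skin in ΔEP alone. The interactions of tumor with mock skin and of treated with mock skin were called for 0 members and 0% of all genes by edgeR, with 0 members by DESeq2 as well. At an unadjusted p under 0.05 there were 6 and 0 members, beside 8.18% and 1.45% of all genes.

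In skin without tumors, no member was called between genotypes. In treated skin 0 of 22 tested members were called, beside 0.00616% of all genes, and 2 had an unadjusted p under 0.05, beside 5.55% of all genes. They were Sema4g (-0.55, SE 0.206, adjusted p = 0.897) and Plxna3 (-0.39, SE 0.161, adjusted p = 0.897), whose ΔEP libraries were all below the fl/fl libraries. Plxnb1 was also lower in ΔEP without overlap (ratio of group means 0.875), and Sema3b was higher without overlap (ratio 1.53). The other tested members overlapped. Sema6d differed by -0.39 (SE 0.350) and Sema4d by 0.10 (SE 0.213). In mock skin 0 of 23 tested members were called or had an unadjusted p under 0.05, beside 0% and 1.59% of all genes. DESeq2 and the exact test also gave 0 calls in both comparisons. In mock skin Sema6d differed by -1.17 (SE 0.614, adjusted p = 1.0) and Sema4d by -0.06 (SE 0.281). Mock ΔEP libraries were below all mock fl/fl libraries for Sema6d, Plxna3 (ratio of group means 0.703) and Plxnb1 (ratio 0.790), with n = 2 for mock ΔEP. The other tested members overlapped. In tumors Plxna3 and Plxnb1 lay the other way. The share of all genes without overlap is not given here for either skin comparison.

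Treated against mock skin, which asked what DMBA and TPA changed outside tumors, gave 0 calls among 23 tested members in fl/fl and 22 in ΔEP, as among all genes (0%). DESeq2 and the exact test gave 0 as well. At an unadjusted p under 0.05 there were 2 members in fl/fl and 1 in ΔEP, beside 5.50% and 4.80% of all genes. In several members the values of mock replicate 1 were far from those of replicates 2 and 3. Sema3c was at 43.0, 502 and 606 CPM in mock fl/fl replicates 1 to 3 and at 32.8 and 457 CPM in mock ΔEP. Plxna2 went the other way, with 308, 97.2 and 98.8 CPM in mock fl/fl and 287 and 80.8 CPM in mock ΔEP. Sema7a, an integrin ligand that is named here after its values were seen, was at 12.3, 0.982 and 0.193 CPM in mock fl/fl and at 10 and 0.721 CPM in mock ΔEP. Without mock replicate 1, treated fl/fl skin had 8 called members beside 15.1% of all genes, with Plxna2, Sema4g, Sema6a and Sema7a higher and Plxnd1, Sema3c, Sema3d and Sema3f lower. Mock ΔEP then kept a single library, so that the 0 calls in treated ΔEP skin cannot be set against those in fl/fl. Several marker lists moved with these libraries. Suprabasal, keratinocyte, hair follicle and Schwann cell markers were lower in mock replicate 1 of either genotype than in the other mock libraries. Hair follicle markers, for example, summed to 648 and 714 CPM against 2007 to 2769 CPM. Melanocyte markers were higher, at 320 and 279 CPM against 41.8 to 94.7 CPM. The part of these cells in the result was not tested.

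Genes that work with semaphorins were read from 3 lists, whose counts stand beside the 18.0% (fl/fl) and 26.0% (ΔEP) of all genes called in tumors against treated skin. Among 14 co-receptors and partners, 12 were tested against treated skin, with 2 higher and 1 lower in fl/fl tumors (median log2 difference -0.11, compared with -0.02 over all genes) and 4 higher in ΔEP tumors (median 0.46, compared with -0.03). Met, the hepatocyte growth factor receptor that pairs with class B plexins, rose by 2.29 in fl/fl (log2, SE 0.220, adjusted p = 0.00130) and by 2.99 in ΔEP (SE 0.371, adjusted p = 0.000986). Itgb1, the integrin chain that binds Sema7a, rose by 1.87 (SE 0.340, adjusted p = 0.00889) and 2.97 (SE 0.217, adjusted p = 0.000173). Erbb2, a receptor kinase that pairs with class B plexins, fell in fl/fl (-1.17, SE 0.189, adjusted p = 0.00595). Nrp1, the co-receptor of Sema3a, rose in ΔEP tumors (1.63, SE 0.233, adjusted p = 0.00169), from 6.42 to 7.54 CPM in treated skin to 18.8 to 27.7 CPM. Of 30 genes downstream of plexins, 28 were tested, with 3 higher and 5 lower in fl/fl (median 0.06) and 6 higher and 4 lower in ΔEP (median 0.04). The small GTPases Rap1a (1.31 and 1.18 in fl/fl and ΔEP) and Rap1b (1.20 and 1.38) rose in both genotypes. Their relative Rras2 rose in ΔEP (1.98, adjusted p = 0.000521). The collapsin response mediator Dpysl5 (-3.37 and -3.66) fell in both. Of 6 proteases that cleave semaphorins, 0 were called in fl/fl (median 0.36), while in ΔEP (median 0.64) Furin (1.32, adjusted p = 0.000856) and Mmp14 (1.41, adjusted p = 0.00104) rose and Pcsk6 (-2.52, adjusted p = 0.0110) fell. In tumors between genotypes, none of the 11, 27 and 6 tested genes of these lists was called (medians 0.55, 0.05 and 0.30, compared with -0.02 over all genes). The smallest p belonged to Nrp1, at 3.05 to 7.02 CPM in fl/fl and 18.8 to 27.7 CPM in ΔEP tumors (2.15, SE 0.354, adjusted p = 0.144).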

How the data were processed

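Epidermal cells sorted from mouse skin and papillomas were profiled by RNA-seq with the Ovation SoLo kit, and the source is given as whole skin in the labels. The authors deposited raw counts for each gene. The submitters' processing notes list Trimmomatic 0.36, STAR 2.5.3, HTSeq 0.9.1 and DESeq2, with build mm10 and no roles. Strand use and removal of PCR duplicates are not given in the sources used here, so that precision from counts covers counting error only.

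Genes were tested in R 4.3.3 with edgeR 4.0.16 (quasi-likelihood F test, two-sided) on the counts as deposited, using the libraries of the groups compared, after filterByExpr and TMM scaling, with Benjamini-Hochberg adjustment over all genes. Calls needed an adjusted p under 0.05 and, except for interactions, a fold over 2. CPM used TMM sizes over 17 libraries. Lengths, positions and UTRs came from GENCODE on GRCm38. Total counts ran from 2808550 to 9617985. The procedure was tested on simulated data in which all genes had the same dispersion and no library deviated. That test does not cover a library such as tumor fl/fl replicate 1. Alternatives were DESeq2 1.42.0, edgeR's exact test, RLE scaling, other count filters (none, or a mean count of 10), a single fit of all libraries, a replicate block, and leaving out each library. Sema4d and Sema6d (named by the study), called members, the members with the smallest p and no overlap between genotypes (up to 5 a direction), and the highest member of each class were described. Lists named up to 3 called genes a direction. Members, lists and rules were chosen with earlier results of these data known. No column lay outside the design.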

Additional observations from a re-analysis of the deposited data

How the results depend on the processing

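Calls among members are given as main count and alternative. In tumors between genotypes, 0 calls became 4 with DESeq2, 4 with the exact test, 3 with a single fit of all libraries and 9 without the low-count filter. Tumors against treated skin gave 6 in ΔEP with the single fit (main count 10). Against mock skin, fl/fl tumors (main count 3) gave 6 with DESeq2, 6 with the exact test, 8 without the filter, 8 with the single fit and 9 without mock replicate 1, and treated fl/fl skin gave 8 without mock replicate 1 (main count 0). Without the filter, treated skin between genotypes and ΔEP treated against mock skin gave 1 each, and the interactions of tumor with treated and with mock skin gave 7 and 2. DESeq2 gave 3 for the former. The cause was not tested.

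Replicate numbers were not shown to pair the libraries, since no comparison with 3 pairs had every correlation of same-numbered deviations above 0.1. The comparisons with mock ΔEP had only 2 pairs. Their correlations were 0.782 and 0.569 in mock skin between genotypes and 0.569 and 0.141 in ΔEP treated against mock skin. For ΔEP tumors against mock skin they were 0.0943 and 0.124. With the replicate block the calls were 5 in fl/fl (main count 8) against treated skin, 0 in fl/fl (main count 3) and 3 in ΔEP (main count 5) against mock skin, and 1 for ΔEP treated against mock skin. The other counts stayed within 1.5 times.

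Leaving out each library gave 0 to 11 calls in tumors between genotypes, 3 to 12 (fl/fl) and 7 to 11 (ΔEP) for tumors against treated skin, 0 to 9 and 1 to 8 against mock skin, 0 to 8 for fl/fl treated against mock skin, and 0 to 10 and 0 to 1 for the interactions of tumor with treated and with mock skin. Sema4d changed sign only where it was not called, in log2 values. Its leave-one-out values ran from -0.0935 (without treated ΔEP replicate 3) to 0.272 in treated skin between genotypes, from -0.203 to 0.0434 (without mock ΔEP replicate 1, and 0.0253 without mock fl/fl replicate 1) in mock skin, from -0.277 to 0.270 and from -0.223 to 0.352 in fl/fl tumors against treated and mock skin (lowest without tumor fl/fl replicate 1), and from -0.0438 (without treated ΔEP replicate 3) to 0.318 in the interaction of treated with mock skin. Of the named genes, tests without 1 library kept direction and side of the threshold in 274 cases, lost the call in 50 and gained it in 7. Levels were also set on RLE scaling and on total counts, which was chosen after seeing the data. Together with the count of nonamers, 42 of these untested values moved by more than the spread between replicates. Low members such as Sema6c were limited by depth, with at most 2 counts in each tumor library.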

Other observations

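Sema3f and Sema3b are neighbors on chromosome 9 of GRCm38, on the minus strand with 72270 bases between them. In ΔEP tumors against treated ΔEP skin they changed in opposite directions, by 1.16 (SE 0.229) for Sema3f and -1.85 (SE 0.371) for Sema3b on the log2 scale. The 4 members on chromosome 5 (Sema3a, Sema3c, Sema3d and Sema3e) lie between positions 12383385 and 17730268. In the same comparison Sema3c rose (1.96, SE 0.578) while Sema3d (-3.53, SE 0.854) and Sema3e (-1.26, SE 0.415) fell. Sema3a was not tested there and did not pass 0.783 CPM in any treated or tumor ΔEP library.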
